A study of Mus musculus with 9 samples.

Results

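The genes described here encode the protein subunits of the cytosolic ribosome. They were chosen by name: protein-coding genes in GENCODE M21 whose symbol starts with Rpl or Rps followed by a digit, p or a, leaving out the Rps6k kinases and symbols with -ps, which mark pseudogenes. The rule found 86 genes among 54532 gene IDs. Of these, 77 are the standard subunits (43 of the large subunit, 3 of its stalk and 31 of the small subunit) and 9 are paralogs or carry a similar symbol, such as Rps19bp1, whose protein binds Rps19 and is no ribosome subunit. Their counts came from RNA sequencing of 9 livers of male ApoE-/- mice on the C57BL/6 background, with 3 libraries per group. ApoE-/- mice lack apolipoprotein E and carry high blood cholesterol, and all 3 groups are labelled with that genotype, which 1 library described below goes against. The first group had a normal diet (replicates 4, 5 and 6). The second was given a high-fat diet and then PBS (HFD + PBS, replicates 3, 4 and 6), and the third the same diet and then recombinant human IgG1, an antibody whose target the labels do not give (HFD + IgG1, replicates 5, 6 and 7). The diet (41% of calories from fat, 43% from carbohydrate, 17% from protein, 4700 kcal/kg) ran for 20 weeks from 4 weeks of age and then gave way to chow for 1 week. Intraperitoneal injections of PBS or of IgG1 (3 mg) came at 25, 26 and 27 weeks, and death was at 29 weeks. For the normal diet group the sources used here give neither age at death nor injections, so diet, age and injection cannot be told apart in comparisons with that group. The livers were picked for sequencing on the basis of fat staining and triglyceride measurements.

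As background, a ribosome joins a small subunit, which reads the mRNA, to a large subunit, which links amino acids, and each is built from ribosomal RNA and 1 copy of most of its proteins. The mRNAs of these proteins are short and abundant, and they start with a C followed by a run of C and T, the 5′ terminal oligopyrimidine (TOP) tract, through which mTORC1 and the protein Larp1 adjust their translation. Hepatocytes export most plasma proteins and hold many ribosomes.

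Before the results, 3 libraries stood at odds with their labels. Replicate 5 of HFD + IgG1 held 235888 counts of Apoe, and the other 8 libraries 225 to 1655. The libraries labelled normal diet replicate 5 and HFD + PBS replicate 6 held 17065 and 10970 counts of Xist, the RNA of the inactive X chromosome of females, and 0 counts over 4 Y-linked genes, although the mice are described as male. The other 7 held 0 to 4 counts of Xist and 2837 to 3385 over the Y-linked genes. In the antibody group, the treatment label reads IgG1 for replicate 5, IgG2 for replicate 6 and IgG3 for replicate 7, while titles and design place all 3 in the IgG1 group. By chi-square per degree of freedom over genes, HFD + IgG1 replicate 6 was nearer to the 3 HFD + PBS libraries (30.3 to 83.8) than to the other 2 of its own group (168 and 217). Its values to normal diet replicates 4 and 5 (74.98 and 63.99) lay in the same range, so this nearness was not particular to HFD + PBS. Its value to normal diet replicate 6 (173.6) did not, so the nearness did not extend to the whole normal diet group. Normal diet replicate 6 was likewise nearer to HFD + IgG1 replicate 7 (90.75) than to its own group (99.99 and 167). Results are given with all 9 libraries, and leading counts also without the 3 at odds with their labels. Alb, the defining hepatocyte marker, took 4.78% to 11.9% of each library. Total counts ran from 16215194 to 18538463.

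To show what the rule did not use, the annotated start sites of members were read from RefSeq (GRCm38.p6), which had promoter windows (250 bases before to 50 after a start) for 66 of the 86 members, 78 windows in all. A C at the annotated first base followed by at least 4 C or T was found in 14 of the 78 windows, or 17.9%. The share was 2.51% of all 32851 windows, 0% of 75 windows of mitochondrial ribosomal protein genes and 5.56% of 36 windows of translation factor genes. Annotated starts can be off by some bases. With the tract allowed to begin within 10 bases of the start on either side, the share was 53.8% for members and 30.7% for all windows. It was 41.3% for mitochondrial ribosomal protein genes and 25.0% for translation factor genes. The sequences below run from 15 bases before the annotated start to 15 bases from it onward, with the tract in capitals. They show 5 standard members with a tract exactly at the start, picked as examples after the sequences were seen, and then 2 members of other kinds without one, Rpl7l1 and Rps19bp1, 2 of the 3 members that were not higher in HFD + PBS than on normal diet. The other one, Rps27rt, has a tract at its annotated start, and 49 tested members with a window have none there. They lie, in the order shown, at chr4:86857353-86857382 (minus strand), chr14:18270972-18271001 (minus), chr2:39005117-39005146 (minus), chr17:33955651-33955680 (minus), chr7:141447636-141447665 (plus), chr17:46782642-46782671 (minus) and chr15:80264292-80264321 (minus).
Rps6: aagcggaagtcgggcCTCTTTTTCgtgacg
Rpl15: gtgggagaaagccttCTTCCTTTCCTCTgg
Rpl35: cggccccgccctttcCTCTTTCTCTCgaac
Rps18: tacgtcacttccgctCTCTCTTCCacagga
Rplp2: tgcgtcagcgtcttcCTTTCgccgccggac
Rpl7l1: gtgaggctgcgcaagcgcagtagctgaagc
Rps19bp1: cagggcggaagtagctcgccgcgtgtgggc

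Other motifs were searched on both strands of the whole windows, as letters only. CCGGAAG, the core bound by ETS factors such as Gabpa, was in 34.6% of member windows, 34.7% of those of mitochondrial ribosomal protein genes and 8.86% of all. AAGATGG, a Yy1 core, was in 15.4% of member windows and 6.34% of all. It was in 17.3% of windows of mitochondrial ribosomal protein genes and 19.4% of those of translation factor genes, so it was not particular to members. TATAA was in 23.1% of member windows and 24.9% of all. The 14 members with a tract at the start had a median level of 158 CPM per kb, and the 49 other tested members with a window had 184 (CPM is the count scaled to a common library size with TMM factors, here divided by transcript length in kb). Their median log2 fold changes were 0.47 and 0.37 for HFD + PBS against normal diet, -0.20 and -0.13 for HFD + IgG1 against HFD + PBS, and 0.22 and 0.27 for HFD + IgG1 against normal diet, where the order turned. For HFD + PBS against normal diet, single members ran from -0.504 to 1.6 among the 14 and from -0.245 to 0.931 among the 49. The 14 include Rps27, Rps27rt and Rps10, whose counts beside those of near copies are given below.

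A property of these genes bears on every count given here: many have near copies elsewhere in the genome. Of each member's 50-base stretches of principal transcript, a median of 42.4% also occurred in a transcript of another gene, on either strand. For mitochondrial ribosomal protein genes the median was 2.84% and for translation factor genes 7.86%. More than 50% of the stretches were shared in 38 of 86 members, and more than 90% in 4 of them (Rps27, Rpl35, Rpl5 and Rps27rt, with 98.7%, 95.1%, 93.8% and 91.1%). The sources used here do not say how reads with several places were counted, so counts of members with shared stretches are uncertain.

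In level per length, the stalk protein gene Rplp1, whose product helps recruit elongation factors, stood first with 642 ± 127 CPM per kb (SD, n = 9). Rps18 followed with 566 ± 116, Rpl10 with 495 ± 95.1, Rpl41 with 464 ± 136 and Rps2 with 442 ± 66.1. These 5 did not separate, since each one's range over the libraries overlapped the next. The median of the 83 tested members was 174 CPM per kb, 69 lay at 100 or more, and the 90th percentile was 10.2 times the 10th. At the low end were Rpl24 with 1.10 ± 0.369 CPM per kb, Rpl36al with 1.13 ± 0.383 and Rps10 with 1.88 ± 0.892, although Rpl24 and Rps10 encode subunits of every ribosome. Rps19bp1 with 10.3 ± 2.39 and Rpl13a with 10.7 ± 2.05 came next. Rpl24 shared 81.7% of its stretches with other genes, Rps10 56.1% and Rpl13a 57.4%. Next to the 5 to 44 counts per library of Rps10, its pseudogene Rps10-ps2 had 462 to 1211. That pseudogene holds 36.5% of the 50-base stretches of Rps10. Rps10 made up 0.859% to 5.34% of the counts of the pair. Rpl10l had 0 counts in all libraries, and Rpl39l and Rpl3l had 2 or fewer in any library, so these 3 paralogs were not tested.

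**Figure D1:**
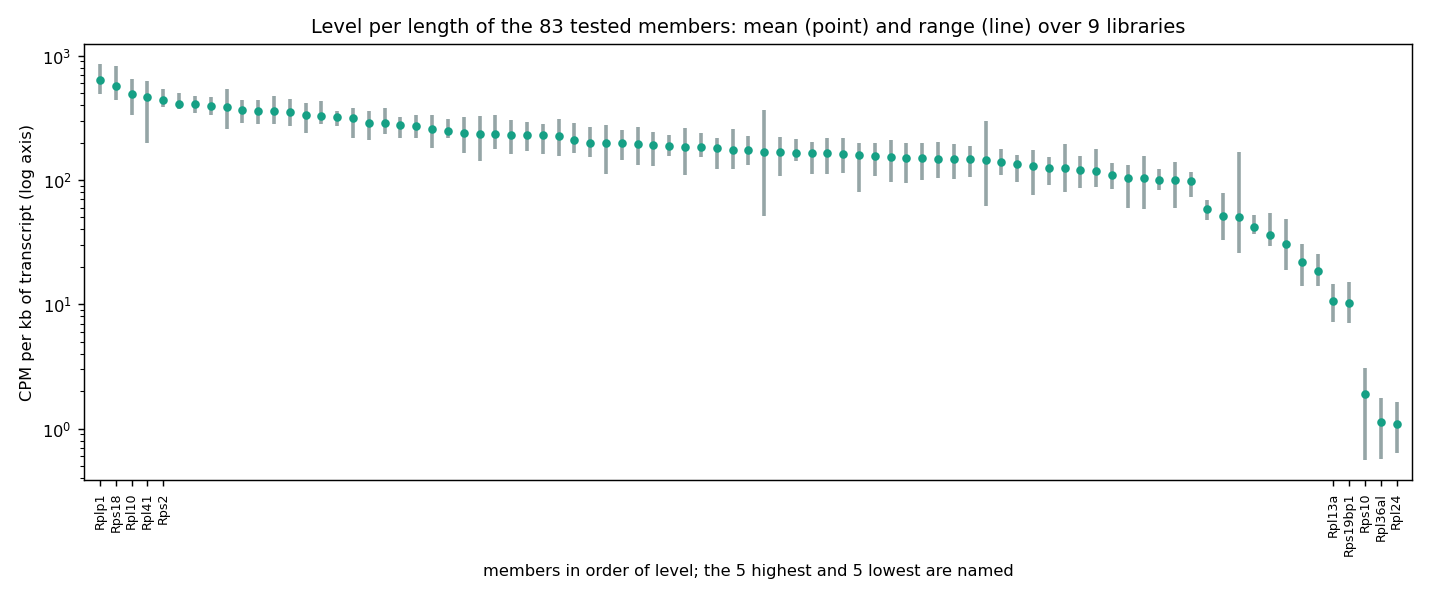
Level of each of the 83 tested members as CPM per kb of transcript (log axis) in order of level, the 5 highest and 5 lowest named, with the mean as a point and the range over 9 libraries as a line. Most members lie between 100 and 642, while Rps10, Rpl36al and Rpl24 lie below 2.

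HFD + PBS was first set against normal diet, which asks how the diet arm differed from the controls. Ribosomal protein mRNAs took more of the library in all 3 HFD + PBS livers. They held 1.14%, 1.08% and 1.32% of all counts in the normal diet libraries, 1.85%, 1.70% and 1.63% in HFD + PBS and 1.21%, 1.40% and 1.45% in HFD + IgG1. Group means were 1.18% ± 0.124, 1.73% ± 0.115 and 1.36% ± 0.129 (SD, n = 3). All HFD + PBS libraries lay above all 6 others, while normal diet and HFD + IgG1 overlapped. An exact test of 3 against 3 cannot go below a p of 0.1 and was not made. After TMM scaling, the median member stood at log2 -0.04, -0.16 and 0.22 from its normal diet mean in the normal diet libraries, at 0.32, 0.60 and 0.34 in HFD + PBS and at 0.22, 0.16 and 0.41 in HFD + IgG1. On that scale all HFD + PBS libraries lay above all normal diet libraries, but HFD + IgG1 replicate 7 lay above HFD + PBS replicates 3 and 6. In bulk RNA, fewer cells of a type and less RNA per cell cannot be told apart.

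**Figure D2:**
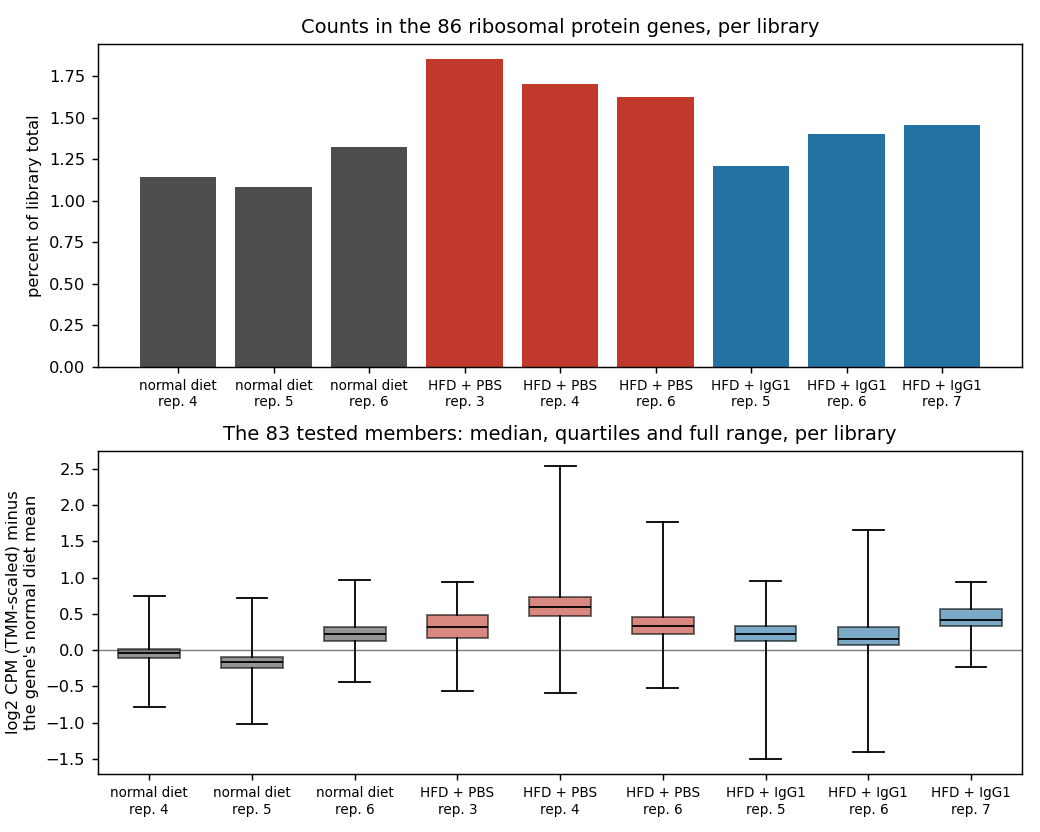
Top, percent of each library's counts in the 86 genes. Bottom, log2 CPM of the 83 tested members minus each gene's normal diet mean (box, quartiles; line, median; whiskers, full range). The share is highest in the 3 HFD + PBS libraries (1.63% to 1.85%), while the scaled median of HFD + IgG1 replicate 7 (0.41) exceeds those of HFD + PBS replicates 3 and 6.

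Member by member, 80 of 83 had a positive log2 fold change in HFD + PBS, against 49.7% of all 14763 genes tested. The median over members was 0.40, a fold of 1.32, where all genes had a median of -0.0028. All 77 standard subunits were positive, at a median of 0.40 for the large subunit, 0.45 for the stalk and 0.42 for the small subunit. The 3 negative members, where 50.3% of all genes were negative, were all of other kinds: Rpl7l1, Rps19bp1 and Rps27rt. For 48 of 83 members the 3 HFD + PBS values lay above the 3 normal diet values, where 13% of all genes did. No member lay wholly below, where 15.3% of all genes did.

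No single gene passed edgeR's quasi-likelihood test at an adjusted p under 0.05 (Benjamini-Hochberg, 0% of genes called in either direction). At an unadjusted p under 0.05, 40 of 83 members were higher and 0 lower, against 9.41% and 11.4% of all genes. On the same genes DESeq2 called 1184, of which 23 were members, all higher, and limma-voom called 0. Leaving out HFD + IgG1 replicate 6, which is outside this comparison but shares its estimate of spread, gave 576 called genes, among them 1 member, Rpl39. Leaving out HFD + PBS replicate 6 gave 14 and no member. With the 3 mismatched libraries left out the member median was 0.40, with 75 of 83 positive and 15 at an unadjusted p under 0.05. Leaving out 1 library turned the 40 into 19 (normal diet replicate 5), 25 (normal diet replicate 4) or 23 (HFD + PBS replicate 4). The share of all genes at that threshold in these runs is not given here, so the changes in count are not results about the members.

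Among large subunit genes, Rpl39 had the smallest p. It encodes a small protein in the wall of the tunnel through which the new chain leaves. Its level was 37.6, 36.1 and 49.1 CPM in the normal diet livers, 75.6, 85.6 and 73.0 in HFD + PBS and 57.6, 62.6 and 77.8 in HFD + IgG1. Both high-fat diet groups lay above the normal diet group and overlapped with each other. The log2 difference between HFD + PBS and normal diet was 0.93 (SE 0.17, edgeR adjusted p 0.078). Rpl30, another protein of the large subunit, had 66.8, 64.1 and 66.8 CPM on normal diet and 111, 130 and 81.0 in HFD + PBS, a log2 difference of 0.70 (SE 0.18, edgeR adjusted p 0.11). Rpl23a, which lies at the tunnel exit, had 59.3, 59.9 and 61.4 CPM on normal diet, 103, 106 and 70.1 in HFD + PBS and 96.5, 90.7 and 95.2 in HFD + IgG1. Its 6 high-fat diet values all lay above the 3 others, and its log2 difference for HFD + PBS was 0.63 (SE 0.17, edgeR adjusted p 0.11).

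In the small subunit, Rps29, a zinc-binding protein of its head, had 44.8, 37.7 and 53.9 CPM on normal diet, 71.4, 78.7 and 81.5 in HFD + PBS and 50.5, 49.4 and 71.5 in HFD + IgG1. HFD + PBS lay above normal diet by 0.76 on the log2 scale (SE 0.19, edgeR adjusted p 0.098). Rps13 had 44.5, 46.3 and 74.7 CPM on normal diet and 102, 103 and 89.4 in HFD + PBS, a log2 difference of 0.83 (SE 0.21, edgeR adjusted p 0.10). In Rps13 the third normal diet library was well above its group, yet below all of HFD + PBS.

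The stalk, Rplp0 with pairs of Rplp1 and Rplp2, was higher in HFD + PBS in all 3 genes, by amounts whose differences from each other were not tested. Rplp1 had 245, 247 and 288 CPM on normal diet and 355, 429 and 324 in HFD + PBS, a log2 difference of 0.51 (SE 0.19). Rplp2 differed by 0.45 (SE 0.14), and Rplp0, at 513, 543 and 520 against 583, 676 and 545 CPM, by 0.19 (SE 0.17). In each of the 3 the HFD + PBS values lay above the normal diet values, in Rplp0 by the narrowest margin. None passed the test.

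Members known for work beyond the ribosome lay within the range of the rest. Rps6, the substrate of the S6 kinases, differed by 0.49 (SE 0.20). Rpl5 and Rpl11, which with 5S rRNA bind Mdm2 and so link ribosome assembly to p53, differed by 0.32 (SE 0.17) and 0.37 (SE 0.18). Rps19, mutated in Diamond-Blackfan anaemia, differed by 0.41 (SE 0.18), and Rpsa, also described as a laminin receptor, by 0.30 (SE 0.17). None of these 5 passed edgeR's test. Rpsa had the tightest controls of them, 386 to 390 CPM, with HFD + PBS at 417 to 546.

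**Figure D3:**
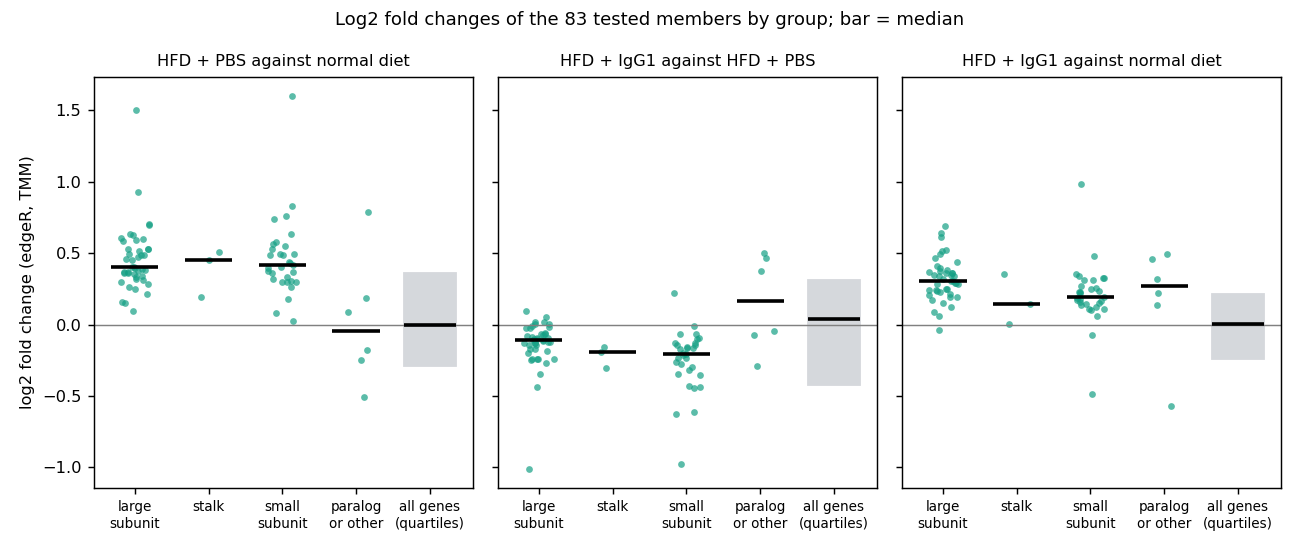
Log2 fold changes of the 83 tested members in the 3 comparisons, 1 point per gene, with a bar at each group's median; the grey box gives the quartiles of all 14763 genes. Standard subunits lie above 0 in the first comparison, and paralogs and similar symbols have a median of -0.05.

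Members are short, and short genes differed from long ones across the whole transcriptome. The median principal transcript was 780 bases in tested members and 2920 in other protein-coding genes. Among other genes, the median log2 fold change of HFD + PBS against normal diet was 0.23 for 129 genes of up to 600 bases, 0.16 at up to 900, 0.11 at up to 1500, 0.03 at up to 3000 and -0.08 above that. Members lay above the others of their length: 0.51 (23 members), 0.43 (28), 0.37 (22) and 0.30 (8), with 0.47 for the 2 members above 3000 bases. Those 2, named here for their length, are Rps15a (5130 bases, the median of 3 principal transcripts) and Rps20 (3706). Their class rests on annotated lengths, and which transcripts these livers made was not tested. For HFD + IgG1 against normal diet the medians were closer, at 0.29 for members and 0.23 for other genes of up to 600 bases, and 0.30 and 0.18 at up to 900. For HFD + IgG1 against HFD + PBS, other genes showed no such gradient (0.02 at up to 600 bases and 0.05 above 3000), while members had -0.20, -0.15, -0.11 and -0.07 in the first 4 length classes and -0.32 for the 2 above 3000 bases. Length thus moved with the comparisons against normal diet, and its part in the members' values was not tested. The length classes were set after these values were known to differ.

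**Figure D4:**
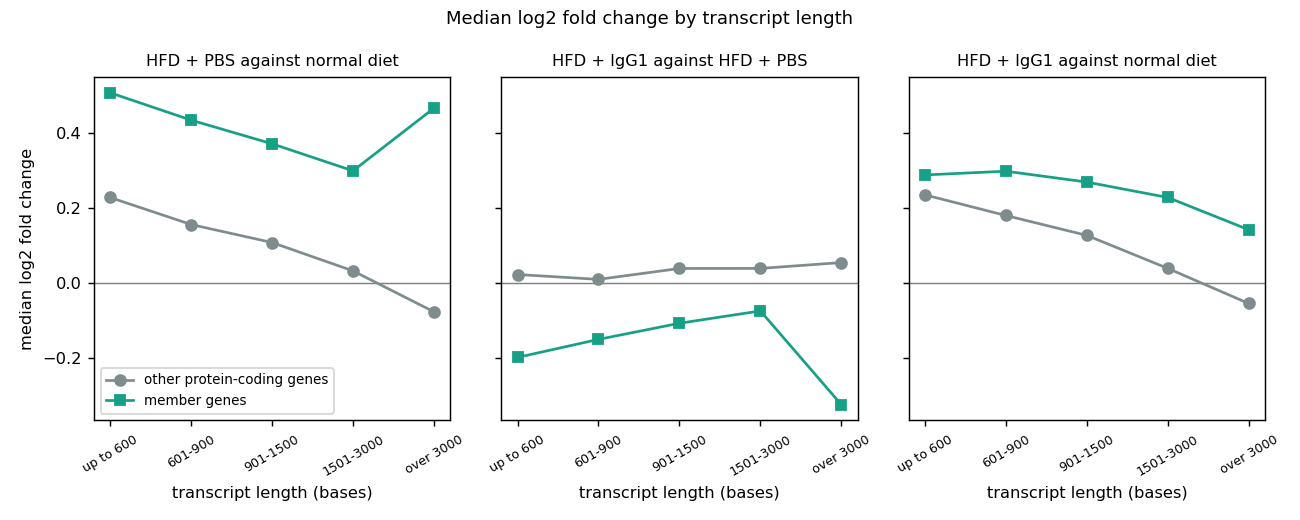
Median log2 fold change by transcript length for members and for other tested protein-coding genes, in the 3 comparisons. In the first, members lie above other genes in each class (0.51 against 0.23 at up to 600 bases); the class above 3000 bases holds 2 members.

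HFD + IgG1 was next set against HFD + PBS, which asks in what the antibody arm differed. This comparison shares the HFD + PBS libraries with the first, so opposite signs in both follow in part from the shared values and are not independent. Of 83 members, 73 had a negative log2 fold change, against 47.2% of all genes, and 10 a positive one, against 52.8%. The median was -0.14 (fold 0.908), where all genes had 0.04. The small subunit had a median of -0.21, with 30 of 31 negative, and the large subunit -0.11, with 37 of 43 negative. In 11 members all HFD + IgG1 values lay below all HFD + PBS values, 9 of them of the small subunit, while 11.2% of all genes did so. A count of 11 of 83 is near that share and is not a result about the members. By edgeR 0% of genes were called in either direction. At an unadjusted p under 0.05, 3 members were lower and 1 higher, against 11.6% and 12.6% of all genes. DESeq2 called 1265 genes, 1 a member (Rps15a, lower), and limma-voom 0.

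These values moved with the scaling. With library totals and no TMM factor, 80 of 83 members were negative, at a median of -0.36, and 60 lay wholly below HFD + PBS, as 15.4% of all genes did under that scaling. The median of all genes then moved to -0.20, so that the members lay 0.16 below it, against 0.18 below with TMM. In the comparison with normal diet the same step moved all genes to 0.17 and members to 0.57, which is 0.40 above. Without HFD + IgG1 replicate 6, 2356 genes were called, among them 2 members, 1 in each direction (Rpl7l1 the higher one), and the member median was -0.09, with 62 of 83 negative. Without HFD + IgG1 replicate 7 the member median was -0.26, with 48 members wholly lower against 16.3% of all genes, and without HFD + PBS replicate 4 the median was -0.07. With the 3 mismatched libraries left out it was -0.20, with 77 of 83 negative.

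Rps15a and Rps28, both of the small subunit, led the lower members. Rps15a had 117, 131 and 110 CPM in HFD + PBS and 78.1, 89.2 and 95.7 in HFD + IgG1, while normal diet had 71.9, 77.3 and 92.1. All 3 HFD + PBS livers lay above the 6 others. The log2 difference between HFD + IgG1 and HFD + PBS was -0.44 (SE 0.15, edgeR adjusted p 0.15). Rps28, near the path of the leaving mRNA, had 46.1, 60.0 and 53.7 CPM in HFD + PBS, 26.0, 39.8 and 37.7 in HFD + IgG1 and 38.5, 22.5 and 34.8 on normal diet. It was lower in HFD + IgG1 by -0.63 on the log2 scale (SE 0.23, edgeR adjusted p 0.16), again with no overlap with HFD + PBS. Rps29 (-0.43, SE 0.19), Rps12 (-0.43, SE 0.19) and the stalk gene Rplp2 (-0.31, SE 0.14) followed, and none passed. Against normal diet, HFD + PBS was higher by 0.57 (SE 0.15) in Rps15a and 0.74 (SE 0.23) in Rps28, again without passing.

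On the other side, Rpl7l1, a paralog of Rpl7, had 62.4, 57.5 and 59.5 CPM in HFD + PBS and 76.9, 70.8 and 106 in HFD + IgG1, with 74.8, 60.8 and 67.3 on normal diet. It was the only member whose HFD + IgG1 values all lay above HFD + PBS, as those of 15.3% of all genes did, with a log2 difference of 0.50 (SE 0.17, edgeR adjusted p 0.14). Rps19bp1 differed by 0.47 (SE 0.25) in the same direction, with overlap. Against normal diet these 2 genes stood at -0.18 (SE 0.17) and -0.25 (SE 0.25) in HFD + PBS, within the spread between replicates.

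In the third comparison, HFD + IgG1 against normal diet, 79 of 83 members were positive, against 50.4% of all genes, and 4 negative (Rpl13a, Rps10, Rps27a and Rps27rt, the third named after its value was seen), against 49.6%. The median was 0.25 (fold 1.19). The groups did not overlap in 21 members, all higher in HFD + IgG1, where 5.54% of all genes were higher and 6.41% lower. edgeR called 0% of genes, DESeq2 called 111, 1 of them a member (Rpl39), and limma-voom 0. At an unadjusted p under 0.05, 7 members were higher and 0 lower, against 3.83% and 3.21% of all genes. Leaving out 1 library turned the 7 into 27 (normal diet replicate 6), 13 (HFD + IgG1 replicate 6), 4 (normal diet replicate 4 or HFD + IgG1 replicate 7) or 3 (normal diet replicate 5). With the 3 mismatched libraries left out the median was 0.18, with 76 of 83 positive and 3 at an unadjusted p under 0.05. Here too the share of all genes at that threshold in such runs is not given. Rpl39 stood at 0.69 (SE 0.17, edgeR adjusted p 0.47) and Rpl23a at 0.65 (SE 0.17, edgeR adjusted p 0.48). Rpl12, at the base of the stalk, had 107, 112 and 136 CPM on normal diet and 150, 152 and 178 in HFD + IgG1, a log2 difference of 0.44 (SE 0.16). Rpl36 (0.61, SE 0.23) and Rpl37 (0.52, SE 0.20), both of the large subunit, came next and overlapped.

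By group means, 69 of 83 members were ordered normal diet, HFD + IgG1, HFD + PBS from low to high, as were 15.8% of all genes. Scaled levels of Rps6 illustrate it, with means of 277 ± 52.3, 347 ± 29.2 and 389 ± 73.3 CPM (SD, n = 3) in that order. The HFD + IgG1 range of Rps6, 328 to 380, overlapped those of both other groups.

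Most members varied alike from library to library. After removing each library's member median, the SD of a member over the 9 libraries had a median of 0.12 on the log2 scale, and 57 of 83 lay under 0.2. Only 5 exceeded 0.5: Rps27 (0.81), Rps10 (0.76), Rps27rt (0.70), Rpl17 (0.62) and Rpl24 (0.51). Rps10 and Rpl24 are among the 3 lowest members, with at most 44 counts in a library. Rps27 and Rps27rt are near copies of each other, and Rpl17 has an abundant pseudogene. Rpl17 was singled out after its values were seen, and so were the sums given next.

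Rps27 encodes a zinc-finger protein of the small subunit. Its gene lies at chr3:90212522-90213651 (minus strand, GRCm38). Rps27rt, a retrogene copy, lies at chr9:114982366-114982739 (minus), and Rps27l, a further paralog, at chr9:66946086-66949516 (plus). The coding sequences of Rps27 and Rps27rt, read from the GENCODE M21 transcripts without the stop codon, are the same in all 252 bases. The first line therefore stands for both genes. Rps27l differs at 60 of 252 bases, which are in capitals.
Rps27: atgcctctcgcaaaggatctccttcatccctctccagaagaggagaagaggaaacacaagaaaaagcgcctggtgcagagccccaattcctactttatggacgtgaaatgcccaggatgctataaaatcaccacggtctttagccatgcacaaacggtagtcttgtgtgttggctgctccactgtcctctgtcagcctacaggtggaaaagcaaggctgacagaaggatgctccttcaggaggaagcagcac
Rps27l: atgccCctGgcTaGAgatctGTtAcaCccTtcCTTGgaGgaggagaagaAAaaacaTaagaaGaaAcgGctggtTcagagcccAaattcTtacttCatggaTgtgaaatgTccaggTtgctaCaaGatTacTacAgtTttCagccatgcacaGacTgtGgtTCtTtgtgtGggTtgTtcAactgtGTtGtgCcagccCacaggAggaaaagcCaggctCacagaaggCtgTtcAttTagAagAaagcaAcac

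Of the 50-base stretches of the Rps27 transcript, 98.6% also occur in Rps27rt and 0% in Rps27l. The counts moved between the copies from library to library. Rps27 held 22.7%, 55.9% and 18.6% of the counts of the pair on normal diet, 43.9%, 75.5% and 68.1% in HFD + PBS and 60.9%, 78.6% and 30.3% in HFD + IgG1. Alone, Rps27 differed between HFD + PBS and normal diet by 1.60 on the log2 scale (SE 0.47, edgeR adjusted p 0.13) and Rps27rt by -0.50 (SE 0.52). Summed, the pair had 78.2, 79.3 and 136 CPM on normal diet, 110, 166 and 135 in HFD + PBS and 86.1, 109 and 117 in HFD + IgG1. The log2 ratio of the summed group means was 0.49 for HFD + PBS against normal diet, and the groups overlapped. The SD around the member median was 0.22 for the sum, against 0.81 and 0.70 for the 2 genes. Rps27l, which can be told from both by sequence, had 68.9, 54.7 and 116 CPM on normal diet, 76.0, 90.3 and 88.9 in HFD + PBS and 116, 84.9 and 130 in HFD + IgG1, with all 3 groups overlapping.

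The same was seen in Rpl17. It had 27.3, 27.4 and 36.7 CPM on normal diet, 39.8, 175 and 44.6 in HFD + PBS and 38.0, 43.1 and 47.5 in HFD + IgG1. The value of HFD + PBS replicate 4 stood far above the other 8. In that library Rpl17 held 77.7% of the counts of Rpl17 and Rpl17-ps10 together, and 21.8% to 27.4% in the other 8. The pseudogene holds 30% of the 50-base stretches of Rpl17. Summed, the pair had 117, 111 and 144 CPM on normal diet and 171, 225 and 179 in HFD + PBS. Its SD around the member median was 0.13, against 0.62 for Rpl17 alone.

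**Figure D5:**
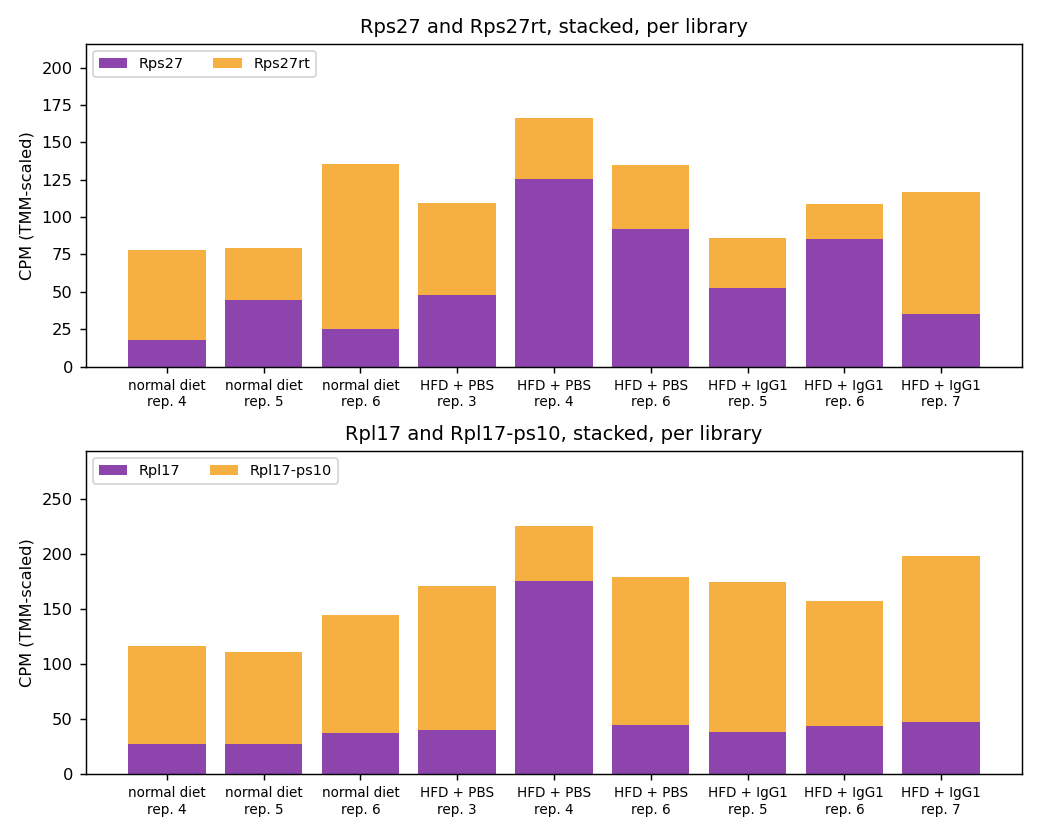
Stacked CPM per library of Rps27 with its copy Rps27rt (top) and of Rpl17 with Rpl17-ps10 (bottom). The split between the copies varies (18.6% to 78.6% in Rps27), while the height of the whole bar varies less.

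Rpl39 and Rpl39l could be told apart by sequence. Rpl39l differs from Rpl39 at 23 of 153 coding bases and shares none of its 50-base stretches. It had at most 2 counts beside 616 to 1712 of Rpl39, the gene with the smallest p among members. Both coding sequences are shown, with differing bases of Rpl39l in capitals. Rpl39 lies at chrX:37082520-37085402 (minus strand) and Rpl39l on chromosome 16.
Rpl39: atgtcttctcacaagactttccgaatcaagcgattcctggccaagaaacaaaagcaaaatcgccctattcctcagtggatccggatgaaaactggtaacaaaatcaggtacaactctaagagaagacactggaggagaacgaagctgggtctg
Rpl39l: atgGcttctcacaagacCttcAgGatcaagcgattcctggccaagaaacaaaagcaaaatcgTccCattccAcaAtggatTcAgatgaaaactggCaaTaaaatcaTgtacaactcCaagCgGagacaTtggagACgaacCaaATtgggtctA

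Rpl22 and Rpl22l1, RNA-binding paralogs with 67.5% identical coding positions, share no 50-base stretch with each other. With other genes, however, Rpl22l1 shares 65.6% and Rpl22 5.16% of its stretches, so the counts of Rpl22l1 are the less certain. Rpl22 had 104, 97.9 and 114 CPM on normal diet and 118, 141 and 135 in HFD + PBS, a log2 difference of 0.32 (SE 0.14). Rpl22l1 had 7.69, 8.74 and 9.90 CPM on normal diet, 16.4, 16.9 and 12.1 in HFD + PBS and 13.6, 9.03 and 14.5 in HFD + IgG1. Its log2 difference between HFD + PBS and normal diet was 0.79 (SE 0.23, edgeR adjusted p 0.12), with no overlap in either gene. Whether the paralogs differed from each other was not tested. Rpl36al stood at 0.43 to 1.33 CPM beside Rpl36a at 68.9 to 104 CPM, with 87.7% identical coding positions. Rpl36al shares 22.1% and Rpl36a 85.5% of its stretches with other genes, and the stretches they share with each other were not counted.

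Of 300 ribosomal protein pseudogenes with a -ps symbol, 142 had 0 counts everywhere and 52 were tested. Together the 300 held 3.54% to 4.44% as many counts as the members. Their median log2 fold changes in the 3 comparisons, in the order above, were 0.40, -0.10 and 0.30, with 40, 20 and 42 of 52 positive. Since pseudogenes share stretches with their parents, these reads cannot be assigned to transcription of the pseudogenes.

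Genes that work with ribosomal proteins did not share one pattern, and none passed edgeR's test in any comparison. Of the ribosome proteins that the naming rule misses, Fau, which is made as a fusion with Rps30, had 145, 129 and 182 CPM on normal diet and 215, 254 and 202 in HFD + PBS, a log2 difference of 0.56 (SE 0.18). Rack1, a scaffold on the small subunit, differed by 0.34 (SE 0.17), also without overlap.

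The 37 translation factors had median log2 fold changes of -0.02, 0.13 and 0.14 in the 3 comparisons, with 17, 25 and 25 positive. For HFD + PBS against normal diet 1 was higher and 2 were lower at an unadjusted p under 0.05, against 9.41% and 11.4% of all genes. Eif5, which triggers GTP hydrolysis at the start codon, had 420, 308 and 422 CPM on normal diet and 175, 218 and 306 in HFD + PBS, a log2 difference of -0.72 (SE 0.23). Eif4g1, the scaffold of the cap-binding complex, differed by -0.46 (SE 0.17). Eif6, which keeps free large subunits apart from small ones, differed by 0.39 (SE 0.14). In HFD + IgG1 against HFD + PBS, Eif5 stood at 0.55 (SE 0.23) and Eif4g1 at 0.40 (SE 0.17).

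The 54 ribosome biogenesis genes had medians of 0.08, 0.14 and 0.21, with 34, 41 and 47 positive. At an unadjusted p under 0.05, 1 was higher in HFD + PBS against normal diet (Rrp1b, 0.50, SE 0.22) and 2 in HFD + IgG1 against HFD + PBS. Of all genes, 9.41% and 12.6% were higher there. Wdr75, of the early pre-rRNA complex, had 11.4, 10.6 and 10.4 CPM in HFD + PBS and 14.6, 14.4 and 15.9 in HFD + IgG1, a log2 difference of 0.47 (SE 0.17). The 12 tested snoRNA host RNAs, several of which also start with a TOP tract, had medians of 0.44, -0.33 and 0.28. Of these 10 were positive in HFD + PBS against normal diet and 2 were higher at an unadjusted p under 0.05, among them Zfas1 (0.96, SE 0.38). Of all genes, 49.7% were positive and 9.41% were higher at that threshold.

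The 77 tested mitochondrial ribosomal proteins, which build a separate ribosome, had medians of 0.04, 0.18 and 0.24. In HFD + PBS against normal diet 42 were positive and none had an unadjusted p under 0.05 by edgeR, where 9.41% of all genes were higher and 11.4% lower. In HFD + IgG1 against HFD + PBS 66 were positive and 15 were higher at that threshold, where 12.6% of all genes were. Mrps27 had 18.6, 17.8 and 17.0 CPM in HFD + PBS and 25.8, 21.3 and 27.0 in HFD + IgG1, a log2 difference of 0.47 (SE 0.14). Mrps7 stood at 0.60 (SE 0.20) and Mrps10 at 0.69 (SE 0.24). Cytosolic members had a median of -0.14 there, and the difference between the 2 families was not tested.

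Among 31 genes of mTOR and Myc control, medians were -0.17, 0.09 and -0.05. In HFD + PBS against normal diet 7 were higher and 7 lower at an unadjusted p under 0.05, against 9.41% and 11.4% of all genes. Ddit4, a stress-induced inhibitor of mTORC1, had 3.11, 3.90 and 4.62 CPM on normal diet, 24.6, 210 and 49.98 in HFD + PBS and 7.85, 13.1 and 23.4 in HFD + IgG1. The 3 groups did not overlap, with log2 differences of 4.61 (SE 0.86, edgeR adjusted p 0.078) for HFD + PBS against normal diet and -2.68 (SE 0.78, edgeR adjusted p 0.14) for HFD + IgG1 against HFD + PBS. Rptor, the subunit of mTORC1 that binds its substrates, had 58.0, 55.7 and 62.7 CPM on normal diet, 32.2, 35.6 and 35.1 in HFD + PBS and 57.2, 40.5 and 47.7 in HFD + IgG1. HFD + PBS was the lowest group with no overlap, by -0.78 (SE 0.15) against normal diet, and HFD + IgG1 was above it by 0.50 (SE 0.15). Deptor, an mTOR inhibitor, stood at -0.82 (SE 0.21) and 0.75 (SE 0.21) in these comparisons. Maf1, a repressor of RNA polymerase III, stood at -0.46 (SE 0.15) in HFD + IgG1 against normal diet.

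The 14 genes of ribosome quality control and rescue had medians of -0.13, 0.17 and 0.02. In HFD + PBS against normal diet 3 were lower at an unadjusted p under 0.05, as were 11.4% of all genes. Usp10, which removes ubiquitin from stalled small subunits, had 91.9, 60.2 and 87.5 CPM on normal diet, 39.1, 37.7 and 49.5 in HFD + PBS and 81.8, 62.9 and 80.7 in HFD + IgG1. HFD + PBS lay below both other groups, with log2 differences of -0.92 (SE 0.20) from normal diet and 0.84 (SE 0.20) for HFD + IgG1 against it. Hbs1l, a factor in the rescue of stalled ribosomes, stood at -0.59 (SE 0.16) for HFD + PBS against normal diet.

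Markers of other cells moved with the groups as well. The summed level of 12 neutrophil markers was 43.0 to 258 CPM on normal diet, 518 to 5246 in HFD + PBS and 16.4 to 801 in HFD + IgG1, with all 12 positive in the first comparison. The 12 macrophage and Kupffer cell markers summed to 1856 to 2499, 2602 to 3141 and 805 to 2765 CPM. The 10 cholangiocyte markers summed to 102 to 114, 187 to 377 and 121 to 162 CPM, the 10 B and plasma cell markers to 167 to 341, 387 to 646 and 89.7 to 262, and the 10 cell cycle genes to 48.4 to 53.1, 59.8 to 358 and 42.1 to 89.2. In these 5 lists the HFD + PBS range lay above normal diet, and 12 of 12, 12 of 12, 10 of 10, 6 of 10 and 10 of 10 markers were positive in that comparison. T and NK cell sums (17.95 to 39.6, 25.0 to 88.9 and 13.2 to 26.4), stellate cell sums (457 to 762, 562 to 911 and 409 to 599), endothelial sums (608 to 672, 546 to 820 and 380 to 688) and erythroid sums (189 to 361, 178 to 569 and 238 to 489) overlapped. Hepatocyte sums were 92240 to 104200 CPM on normal diet, 62020 to 126600 in HFD + PBS and 105600 to 179500 in HFD + IgG1, with 4 of 12 markers positive in HFD + PBS against normal diet. Skeletal muscle sums stayed under 2 CPM, with 6 to 9 of 10 markers at 0 counts in a library, and pancreatic acinar sums at 3.97 to 21.8. The part of these cells in the ribosomal protein values was not tested.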

How the data were processed

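RNA of 9 livers, in libraries made with a NEBNext Ultra kit per the labels' protocols, was analysed from the table of unnormalised whole-number counts that the authors deposited. Bowtie 0.12.2 and mm10 are named, per the submitters' processing notes, without a role. The sources used here do not name the counter, its annotation, its use of strand or its treatment of reads with several places. Genes were named from GENCODE M21 (54495 of 54532 IDs). edgeR 4.0.16 in R 4.3.3 was fitted with TMM factors, filterByExpr (minimum count 10, minimum total 15), group means over all 9 libraries and robust quasi-likelihood tests, two-sided, adjusted by Benjamini-Hochberg over 14763 genes at a threshold of 0.05. SEs were derived by dividing the size of edgeR's unshrunk log2 fold change by the root of its F statistic. Fold changes are edgeR's shrunken ones. Simulated counts with these depths recovered 16, 18 and 14 of 100 genes changed 2-fold and 68, 64 and 64 of 100 changed 4-fold in the 3 comparisons. Each library is taken as 1 mouse, p-values measure only the spread between these libraries, and chi-square per degree of freedom between any 2 libraries was 30.3 or more (61.8 within a group), so no library was counted as a duplicate. Level per length uses the median length of principal transcripts. Coding sequences were aligned with Biopython 1.88, since no protein sequences were used here.

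Members, lists and tests were chosen with earlier results of these data known. Genes are named where they have the 5 smallest p values per direction in a comparison, the 5 highest or lowest levels, up to 3 smallest p values of a list, or were set as paralog and role examples; exceptions are stated. Alternatives were DESeq2 1.42.0, limma-voom (limma 3.58.1), other scalings, filters and sets of libraries, and the replicate number as a block. Some results on single genes are not reported here.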

Additional observations from a re-analysis of the deposited data

How the results depend on the processing

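Each group held 3 livers, at 16215194 to 18538463 counts each, and whether library number or depth limits the calls was not tested. The member medians kept their sign in every alternative run, as did all printed fold changes but 2: Rpl7l1 in HFD + PBS against normal diet was 0.0077 with library totals only, and Rps27rt there was 0.019 without normal diet replicate 6 (-0.82 to 0.019 leaving out each library). Of the alternative fits of named genes, 1258 kept side and direction and 41 newly passed the threshold. The causes were not tested.

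Replicate numbers come from the titles of separate mice. Same-numbered libraries had correlations of their deviations from -0.523 to 0.0176, so the numbers are not taken as pairs. With the replicate block, members at an unadjusted p under 0.05 numbered 9, 0 and 3 in the 3 comparisons, against 40, 4 and 7. For this and the alternatives below, the share of all genes at that threshold is not given. Changes in these counts are therefore not results about the members.

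For HFD + PBS against normal diet, genes called were 1184 with DESeq2, 274 with no filter, 184 with only the 6 libraries compared and 2 without the 3 mismatched libraries (0 to 576 leaving out each library), and members called 23, 3 and 1 in the first 3 (0 to 1). Members at an unadjusted p under 0.05 were 71 with library totals and 15 without the 3 libraries (19 to 53), the median 0.57 with library totals (0.31 to 0.52), and members without overlap 48 to 72, against 27.6% to 42.3% of all genes.

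For HFD + IgG1 against HFD + PBS, genes called were 1265 with DESeq2, 57 with no filter and 556 with only the antibody library labelled IgG1, which is assumed to vary like the other groups (0 to 2356), and members called 1 with DESeq2 (0 to 2). Members at an unadjusted p under 0.05 were 9 with DESeq2, 12 with upper-quartile factors, 34 with library totals, 8 with the 6 libraries and 1 without the 3 (1 to 8). The median was -0.36 with library totals (-0.26 to -0.07). Members without overlap in either direction, 12 of 83 against 26.5% of all genes, were 20 with DESeq2 and with RLE factors (26% of all genes), 27 with upper-quartile factors (25.7%), 60 with library totals (21%), 19 with at least 1 CPM in 3 libraries (26.4%) and 21 with the 6 libraries (26.2%). They were 33 without the 3 (40.7%), 51 with only the antibody library labelled IgG1 (69.3%) and 12 to 49 leaving out each library (26.1% to 53.1%). The library labelled IgG1 is replicate 5, which held 235888 counts of Apoe and is itself among the 3 at odds with their labels. That setting thus rests on a single library.

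For HFD + IgG1 against normal diet, genes called were 111 with DESeq2, 6 with no filter and 3 with the 6 libraries (0 to 6), and members called 1 with DESeq2 (0 to 0). Members at an unadjusted p under 0.05 were 12 with DESeq2 and with at least 1 CPM in 3 libraries, 11 with limma-voom and 3 without the 3 (3 to 27), and the median 0.17 to 0.36. Members without overlap, 21 of 83 against 11.9% of all genes, were 9 with library totals (12% of all genes), 37 without the 3 (31.1%), 45 with the antibody library labelled IgG1 (54.6%) and 21 to 65 leaving out each library (12% to 35.7%).

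Without the 50 genes with the most counts, the members' share was 1.76%, 2.54% and 2.07% for normal diet, HFD + PBS and HFD + IgG1. By library it ran from 1.6652% to 1.8892%, 2.3985% to 2.7028% and 1.8919% to 2.1847%. Normal diet and HFD + IgG1, which overlapped with all genes kept, thus did not overlap here, by a narrow margin. With all genes kept and each library left out in turn, the share was 1.11% to 1.23%, 1.66% to 1.78% and 1.31% to 1.43%.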
